A study of Mus musculus with 577 samples.

Results

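The 8 genes described here, Nppc, Npr2, Gpr3, Gpr12, Adcy3, Pde3a, Wee2 and Cdc25b, encode steps of the signalling that holds the mammalian oocyte in meiotic prophase. They were taken by symbol from every deposited gene table, and all 8 of them were among the 22060 protein-coding genes that the tables share. In the textbook account, granulosa cells secrete C-type natriuretic peptide, which acts on its guanylyl cyclase receptor to raise cGMP, and cGMP passes into the oocyte through gap junctions, where it inhibits the phosphodiesterase that breaks down cAMP. The oocyte makes cAMP through constitutively active G protein-coupled receptors and adenylyl cyclase, and cAMP-dependent protein kinase keeps the cyclin-dependent kinase CDK1 inactive by favouring its inhibitory kinase over its activating phosphatase. A surge of luteinizing hormone lowers cGMP, and meiosis resumes.

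RNA of mouse cells was read in 577 libraries, 562 of them as read counts per gene from the 3′ ends of transcripts and 15 of them as counts per exon and splice junction. Ovaries came from 8-week-old females with no stated transgene or treatment, and the strain is not given in the sources used here. They were frozen and sectioned, the sections were fixed in alcohol unless stated and stained with cresyl violet, and cells were cut out by laser capture microdissection (LCM). Oocytes came from primary follicles or from secondary-to-early antral follicles. Single granulosa cells came from secondary-to-early antral follicles and pools from early antral ones, and both were labelled neighboring when next to the oocyte and non-neighboring otherwise.

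Cells of the same kinds were read by several methods. DRaqL is a lysis step for captured cells in which a detergent is quenched before cDNA synthesis, and it was combined with SC3-seq, SMART-Seq v4 or Smart-seq2. SMART-Seq v4 and LCM-seq were also run without it. DRaqL-SC3-seq covered 44 oocytes, 57 single granulosa cells, 7 pools of about 10 granulosa cells from each position, 7 samples of the granulosa of single sectioned follicles, which carry no position label and not all of which have a known stage, and 2 sections each of 8 oocytes. In this set, 3 more granulosa cells whose profile was mixed with that of oocytes were left out, after the study, whereas no such cells were removed from the other sets. A formalin set of 12 oocytes and 24 granulosa cells came from sections fixed in formalin for 24 h and was read by DRaqL-Smart-seq2 with an added protease step, so that fixation and protease cannot be told apart in it. In 1 proestrus mouse, one ovary was frozen, and its captured cells were read by DRaqL-Smart-seq2. Cumulus-oocyte complexes of the other were dissociated in medium with a cAMP analog, which only this arm received, and these cells were read by Smart-seq2 without DRaqL. In this arm the oocytes were labelled fully grown and neighboring cells were those attached to the oocyte. Mouse embryonic stem cells (ES cells, 45 fresh and 36 captured from a frozen cell block), cultured with LIF and inhibitors of GSK and MEK, served as cells of another type.

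The labels name no animal for the single cells, and each group of cells therefore counted as 1 sample. Differences between such groups are given as values with the SD over cells and without a p-value. Only the 7 neighboring and 7 non-neighboring pools were compared by a test, and since their animals are not named the test covers the spread between pools. Single granulosa libraries held 12748 to 6749468 protein-coding reads with a median of 434497, oocyte libraries 133799 to 17506401 with a median of 1486258, and pools 3811945 to 8259281. Levels are log2 (RPM+1), where RPM is reads per 1000000 protein-coding reads of the library. The 14 oocyte markers summed to pooled levels of 3652 to 50228 RPM in the groups of oocytes and the 10 granulosa markers to 3805 to 30909 RPM in the groups of granulosa cells compared, so that both cell types carried their markers. Granulosa libraries also held oocyte markers, more of them next to the oocyte, and theca markers, more of them away from it. These sums are given beside the results concerned. The theca list was Cyp17a1, Cyp11a1, Star, Hsd3b1, Insl3 and Col1a1, and 5 of these 6 were among the genes counted. The paper uses Hsd3b1 as a marker of corpus luteal cells, so that this sum does not by itself identify theca cells.

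Promoters are shown for the ligand gene, Nppc, and for Gpr3 and Wee2, the genes that differed most between oocyte stages. Each runs from 250 bases before to 50 bases after the RefSeq transcription start in GRCm38.p6, and 7 of the 8 genes matched an entry. Capitals mark matches on either strand to CANNTG (E-box), TAATTA (homeobox core), TATAAA, which is the TATA box, and TGACG (half-site of the cAMP response element). Positions count the first base of the transcript as 1 and the base before it as -1, and the marked matches did not overlap one another. The RefSeq start of Wee2 lies inside the gene span of the annotation given for it later.
Nppc, chr1:86670524-86670823, minus strand: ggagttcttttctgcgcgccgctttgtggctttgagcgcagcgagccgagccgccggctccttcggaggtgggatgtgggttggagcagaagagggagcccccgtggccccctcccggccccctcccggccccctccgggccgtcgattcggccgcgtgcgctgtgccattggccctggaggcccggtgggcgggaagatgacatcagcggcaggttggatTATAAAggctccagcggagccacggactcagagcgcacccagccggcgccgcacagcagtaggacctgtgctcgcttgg
Gpr3, chr4:133212487-133212786, minus strand: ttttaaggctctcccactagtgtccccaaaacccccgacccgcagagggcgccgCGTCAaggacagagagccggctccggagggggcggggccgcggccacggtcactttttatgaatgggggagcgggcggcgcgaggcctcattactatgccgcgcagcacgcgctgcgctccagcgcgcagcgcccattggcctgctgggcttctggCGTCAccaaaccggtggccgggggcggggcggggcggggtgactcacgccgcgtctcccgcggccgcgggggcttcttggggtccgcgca
Wee2, chr6:40442613-40442912, plus strand: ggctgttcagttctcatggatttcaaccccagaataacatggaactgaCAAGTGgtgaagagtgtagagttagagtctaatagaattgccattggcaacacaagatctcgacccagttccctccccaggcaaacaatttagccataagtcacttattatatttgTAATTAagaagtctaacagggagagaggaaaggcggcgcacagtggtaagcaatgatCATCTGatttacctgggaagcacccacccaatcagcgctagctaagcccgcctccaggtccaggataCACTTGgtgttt
Nppc held a TATA box starting at position -29 from the start, Gpr3 held 2 half-sites of the cAMP response element at positions -196 and -40, and Wee2 held 3 E-boxes at positions -202, -29 and 39 and a homeobox core at -86. Of 27025 promoters of this length, 1 per gene, 72.1% held an E-box, 21% a half-site, 5.31% a homeobox core and 14.2% a TATA box. A match is a string of letters and not a measured binding site.

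In single cells by DRaqL-SC3-seq, the 8 genes divided between the cell types. Gpr3, Pde3a, Wee2 and Cdc25b were higher in oocytes than in granulosa cells by more than 1.8 on the log2 scale with a mean above 4, a fold of 3.48 applied to means over cells. Npr2 was lower in oocytes by the same rule, and Nppc, Gpr12 and Adcy3 did not pass it. Of all 21036 genes with a read, 24.7% passed as higher in oocytes and 1.14% as lower. The median difference was 2.21 over the 8 genes and 0.67 over all genes. Thus, 4 of 8 genes on the oocyte side stood against a background in which about 1 gene in 4 did the same.

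**Figure D1:**
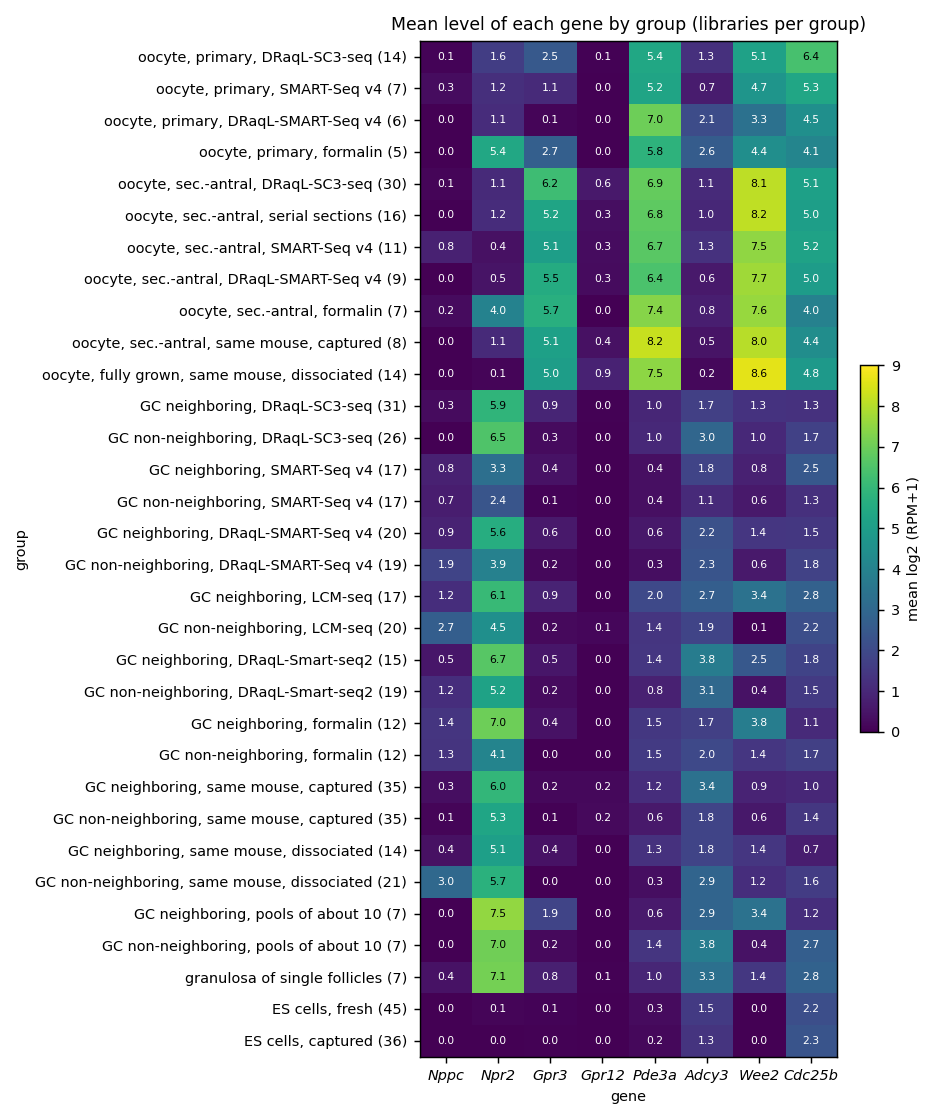
Mean log2 (RPM+1) of each of the 8 genes (columns) in each group of libraries (rows, with the number of libraries in parentheses; GC, granulosa cells; sec.-antral, secondary to early antral). Pde3a and Cdc25b have means of at least 3.96 in every row of oocytes, while Gpr3 in primary follicles is as low as 0.11 and Npr2 in formalin oocytes is as high as 5.40.

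Nppc encodes the precursor of C-type natriuretic peptide, the ligand of the pathway (chromosome 1, 86666291 to 86670571, minus strand, GRCm38). Its reads were rare and lay in few cells. In DRaqL-SC3-seq, 2 of 31 neighboring and 0 of 26 non-neighboring granulosa cells held a read, and 0 of 26 cells allows a share of up to 13.2% (exact Clopper-Pearson interval, which, like all intervals here, covers counting error only because reads carried no molecular identifiers). All 14 pools held 0 Nppc reads, and the upper limits of the exact Poisson interval were 0.10 RPM over the neighboring and 0.09 RPM over the non-neighboring pools. In the granulosa of single follicles, 4 of 7 samples held a read and the sum was 20 reads, a pooled level of 0.48 RPM. In such samples and in the pools, fewer cells of a type and less RNA per cell cannot be told apart.

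In the other sets of captured cells, the transcript was found in 5.71% to 45% of granulosa cells. The share of cells with a read was higher in non-neighboring cells for 3 of the captured sets, at 36.8% against 20.0% in DRaqL-SMART-Seq v4, 36.8% against 20.0% in DRaqL-Smart-seq2 and 45% against 35.3% in LCM-seq. It was lower for SMART-Seq v4 (11.8% against 17.6%) and for formalin (25.0% against 33.3%), and 5.71% for both positions in the captured ovary of the same-mouse experiment. The intervals of the shares overlapped within each of these pairs. After every library was thinned to 50000 reads, which 3 libraries could not reach, the first 3 of these pairs became 21.1% against 10.0%, 10.5% against 6.67% and 45% against 23.5%. Of the others, SMART-Seq v4 became 11.8% for both positions, formalin turned to 16.7% against 8.33%, and the captured cells of the same mouse became 0% against 5.88%. Summed theca markers were higher in the non-neighboring cells of all 7 captured sets of single cells, at 463 to 1841 RPM over a group against 7.96 to 499 RPM in the neighboring ones, and their part in these shares was not tested.

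Among the granulosa groups, dissociated non-neighboring cells had the highest mean of Nppc, 3.03 ± 3.34 (SD, 21 cells), close to the 2.68 ± 3.13 of the 20 non-neighboring cells by LCM-seq. In the dissociated cells a read was found in 11 of 21 non-neighboring cells (52.4%, 29.8% to 74.3%) and in 1 of 14 neighboring cells (7.14%, 0.18% to 33.9%), with overlapping intervals. Levels in the non-neighboring cells ranged from 0 to 8.57 with a median of 2.62, whereas the single positive neighboring cell stood at 5.47. In the same ovary pair, captured non-neighboring cells averaged 0.14 ± 0.57 (SD, 35 cells) and dissociated ones the 3.03 given above. Neighboring cells averaged 0.32 ± 1.36 (SD, 35 cells) when captured and 0.39 ± 1.46 (SD, 14 cells) when dissociated. The arms differed in medium, handling, amplification method and the meaning of the position labels at once, which cannot be told apart. At 50000 reads per library the shares of the dissociated cells were 7 of 20 (35%) and 1 of 13 (7.69%), the first of them below the 45% of LCM-seq. The dissociated non-neighboring cells also held 30909 RPM of granulosa markers and 4524 RPM of theca markers over the group, against 13988 and 55.6 RPM in the neighboring ones, and the part of this in the Nppc values was not tested. The paper describes profiles mixed with those of oocytes more often in dissociated granulosa cells attached to the oocyte than in the others. Such cells were not removed from this set. The median number of genes with a read was 4433 in dissociated neighboring and 7126 in dissociated non-neighboring libraries. Their pooled oocyte markers were 1348 and 223 RPM in the same order. The part of these differences in the Nppc shares was not tested. Oocytes seldom held the transcript. In the 44 oocytes of DRaqL-SC3-seq, 6 held a read and the highest level was 1.62, while in 81 ES cells there was no read. The highest mean over oocytes, 0.83 ± 1.23, was that of the 11 secondary-to-early antral oocytes by SMART-Seq v4.

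Npr2 encodes the guanylyl cyclase receptor of this ligand (chromosome 4, 43631935 to 43651244, plus strand). It was a gene of the granulosa cells. In DRaqL-SC3-seq, 51 of 57 granulosa cells held a read, and levels ran from 0 through a median of 7.05 to 10.57, with a mean of 6.16 ± 3.13. Oocytes ran from 0 through 0 to 4.66 with a mean of 1.26 ± 1.59 (44 oocytes), and 3 of 81 ES cells held a read. The cell types overlapped because 6 granulosa cells held no read and 19 oocytes held at least 1.

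The difference of means, oocytes minus granulosa cells, was negative in 6 of 6 sets, at -4.91 in DRaqL-SC3-seq, -2.13 in SMART-Seq v4, -4.07 in DRaqL-SMART-Seq v4, -4.55 in the captured and -5.37 in the dissociated cells of the same mouse, and -0.97 in formalin. The formalin set stood apart because its oocytes held Npr2. All 12 of them had reads, from 2.78 through 4.59 to 7.79, whereas means of the other groups of oocytes lay between 0.11 and 1.62. In the 5 formalin oocytes of primary follicles the levels were 5.15, 7.79, 4.87, 3.96 and 5.25. The summed granulosa markers were 952 RPM in these and 579 RPM in the secondary-to-early antral formalin oocytes, against at most 667 RPM in the other groups of oocytes, and their part in the Npr2 reads was not tested. The gene overlaps an antisense gene, Gm12473, and the sources used here do not say whether counting used the strand.

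**Figure D2:**
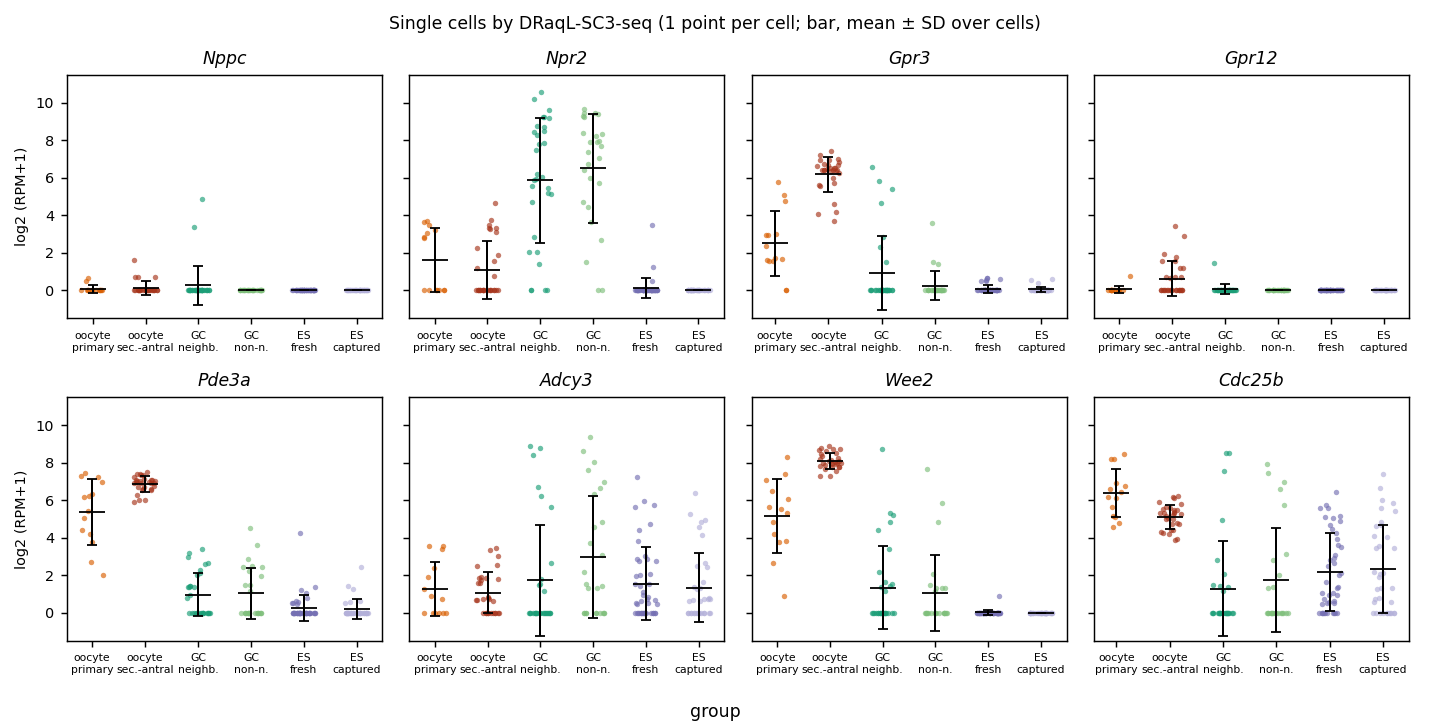
Level of each gene in log2 (RPM+1) per single cell by DRaqL-SC3-seq, for 14 oocytes of primary and 30 of secondary-to-early antral follicles, 31 neighboring and 26 non-neighboring granulosa cells (GC), and 45 fresh and 36 captured ES cells; bars are the mean ± SD over cells. Npr2 in granulosa cells reached 10.57 and was 0 in 6 cells, whereas Wee2 in the 30 older oocytes stayed between 7.27 and 8.89.

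Gpr3 encodes the constitutively active receptor that sustains cAMP in the mouse oocyte (chromosome 4, 133209340 to 133212536, minus strand). Over the 44 oocytes of DRaqL-SC3-seq it averaged 5.02 ± 2.13, and over the 57 granulosa cells 0.62 ± 1.57. A read was found in 42 oocytes and 10 granulosa cells, and 1 granulosa cell reached 6.56. The difference of means lay between 2.97 and 4.97 in the 6 sets. In the captured cells of the same mouse the groups did not overlap, with 8 oocytes from 4.06 to 6.99 and 70 granulosa cells from 0 to 3.22. The gene lies across from Cd164l2 on the other strand.

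Gpr12 encodes a related receptor, which raises cAMP in rat oocytes (chromosome 5, 146582398 to 146585239, minus strand). In oocytes of secondary-to-early antral follicles by DRaqL-SC3-seq, 12 of 30 held a read (40.0%, 22.7% to 59.4%), the highest level was 3.40 and the pooled level was 0.99 RPM. Of the 14 oocytes of primary follicles, 1 held a read. The dissociated fully grown oocytes had the highest mean among oocytes, 0.86 ± 1.22, with reads in 5 of 14. In granulosa cells the gene was at 0 in 14 of 14 pools and in 56 of 57 single cells by DRaqL-SC3-seq. However, 2 captured granulosa cells of the same-mouse experiment stood at 7.06 and 7.87, 1 at each position, above every oocyte. With so few reads elsewhere, no difference between cell types could be read from the means.

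Adcy3 encodes an adenylyl cyclase that acts below these receptors (chromosome 12, 4133103 to 4213525, plus strand). It was detected in all cell types and varied from cell to cell. In DRaqL-SC3-seq, 27 of 44 oocytes held a read, with levels up to 3.56 and a mean of 1.13 ± 1.21. Of the granulosa cells, 27 of 57 did, with levels up to 9.38 and a mean of 2.29 ± 3.15. Of the ES cells, 48 of 81 did, with a mean of 1.45 ± 1.90. At full depth, which was lower in granulosa cells, the share of positive cells was thus of the same order in oocytes, granulosa cells and ES cells. At 50000 reads per library it was 14.3% in primary and 6.67% in secondary-to-early antral oocytes. It was then 25.8% in neighboring and 34.6% in non-neighboring granulosa cells, and 15.6% in fresh and 8.33% in captured ES cells. The positive granulosa cells also reached higher levels. Oocytes were lower in 6 of 6 sets, by 0.31 to 2.30. As the log2 ratio of mean RPM in DRaqL-SC3-seq the difference was -4.22 in place of -1.16, past the fold, with pooled levels of 2.33 RPM in oocytes and 55 RPM in granulosa cells. The gene overlaps Cenpo on the other strand.

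Pde3a encodes the cAMP phosphodiesterase that cGMP inhibits (chromosome 6, 141249269 to 141507448, plus strand). Every oocyte in every set held reads of it. Levels in the 44 oocytes of DRaqL-SC3-seq ran from 2.03 through 6.90 to 7.48, and those in the 57 granulosa cells from 0 through 0 to 4.52. The difference of means was between 5.23 and 7.34 in the 6 sets, and the pooled level of granulosa cells was 0.67% to 3.60% of that of oocytes. The summed oocyte markers in granulosa cells were 1.78% to 10.4% of their oocyte level in the same sets. Next to Npr2, Pde3a thus held the opposite place in every set, with the receptor on the granulosa side and the phosphodiesterase on the oocyte side.

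Wee2 encodes the oocyte kinase that phosphorylates and inhibits CDK1 (chromosome 6, 40439088 to 40466813, plus strand). All 44 oocytes of DRaqL-SC3-seq held reads, at 7.16 ± 1.81, and the 57 granulosa cells averaged 1.20 ± 2.11. Oocytes and granulosa cells did not overlap in the captured cells of the same mouse, where 8 oocytes lay between 7.60 and 8.80 and 70 granulosa cells between 0 and 4.14. They did not overlap among the dissociated cells either, where 14 oocytes lay between 8.28 and 8.98 and 35 granulosa cells between 0 and 7.30. In ES cells, 1 of 81 held a read. The pooled level of granulosa cells was 0.62% to 7.52% of that of oocytes in 5 sets and 33.5% in formalin. In the neighboring formalin cells it was 54.6%, and 14% without 1 cell that held 231 Wee2 reads, 1139 RPM, together with 5795 RPM of the 14 oocyte markers.

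Cdc25b encodes the phosphatase that activates CDK1 when meiosis resumes (chromosome 2, 131186949 to 131198497, plus strand). Its means were higher in oocytes, by 2.64 to 4.02 in the 6 sets, but its reads were not rare elsewhere. In DRaqL-SC3-seq, oocytes ran from 3.87 through 5.33 to 8.47, and 20 of 57 granulosa cells held reads with a highest level of 8.53. Of the ES cells, 59 of 81 held reads, with a mean of 2.24 ± 2.18. Because a few granulosa cells held many reads, the pooled level in granulosa cells was 42.7% to 75% of that in oocytes in 5 sets and, in formalin, above it (21.5 against 21.2 RPM), in contrast to Pde3a. In DRaqL-SC3-seq the difference of 4.02 became 1.80 with a pseudocount of 10, just under the fold, and 1.07 as the log2 ratio of mean RPM. The gene overlaps Spef1 on the other strand.

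Next, oocytes of secondary-to-early antral follicles were compared with those of primary follicles, in 4 sets. Gpr3 and Wee2 were higher in the older oocytes past the fold, and no member was lower past it. Of 20696 genes in DRaqL-SC3-seq, 7.56% passed as higher and 2.22% as lower. The median difference was 0.30 over the 8 genes and 0.04 over all genes.

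Gpr3 ran from 0 through 2.03 to 5.75 in 14 oocytes of primary follicles and from 3.68 through 6.43 to 7.40 in 30 of secondary-to-early antral follicles. The means were 2.50 ± 1.74 and 6.19 ± 0.93, a difference of 3.69. The other sets gave 4.00 in SMART-Seq v4, 5.41 in DRaqL-SMART-Seq v4 and 2.94 in formalin. In DRaqL-SMART-Seq v4 the stages did not overlap, since 5 of 6 oocytes of primary follicles held no read and the other stood at 0.69, whereas the 9 older ones began at 3.41.

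Wee2 ran from 0.87 through 5.44 to 8.31 in primary and from 7.27 through 8.00 to 8.89 in secondary-to-early antral follicles, with means of 5.14 ± 1.98 and 8.10 ± 0.43. The difference was 2.96, against 2.80, 4.38 and 3.18 in the other sets in the same order. The stages did not overlap in SMART-Seq v4 (0 to 5.85 against 6.90 to 7.95) or in DRaqL-SMART-Seq v4 (0 to 5.77 against 6.51 to 8.54). The spread between oocytes was also narrower in the older stage.

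Pde3a was detected in every oocyte of both stages. Its means were 5.37 ± 1.75 and 6.86 ± 0.41 in DRaqL-SC3-seq, a difference of 1.49, and the other sets gave 1.45, -0.57 and 1.54. Cdc25b was lower in the older oocytes of DRaqL-SC3-seq, at 5.11 ± 0.65 against 6.37 ± 1.27, but its differences in the other sets, -0.15, 0.47 and -0.15, did not keep that size or sign. Npr2 was lower in the older oocytes in 4 of 4 sets, by 0.54 to 1.43, at levels near the detection limit except in formalin. Adcy3 changed sign between sets, from -1.86 to 0.58. Thus the inhibitory kinase and the cAMP-sustaining receptor were higher in the older oocytes by more than 1.8 in 4 of 4 sets. The phosphodiesterase, higher in 3 of 4 sets, and the activating phosphatase differed by less than 1.8 in each. The sets that compare methods came from sections of the same ovary, so that they are not independent animals.

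**Figure D3:**
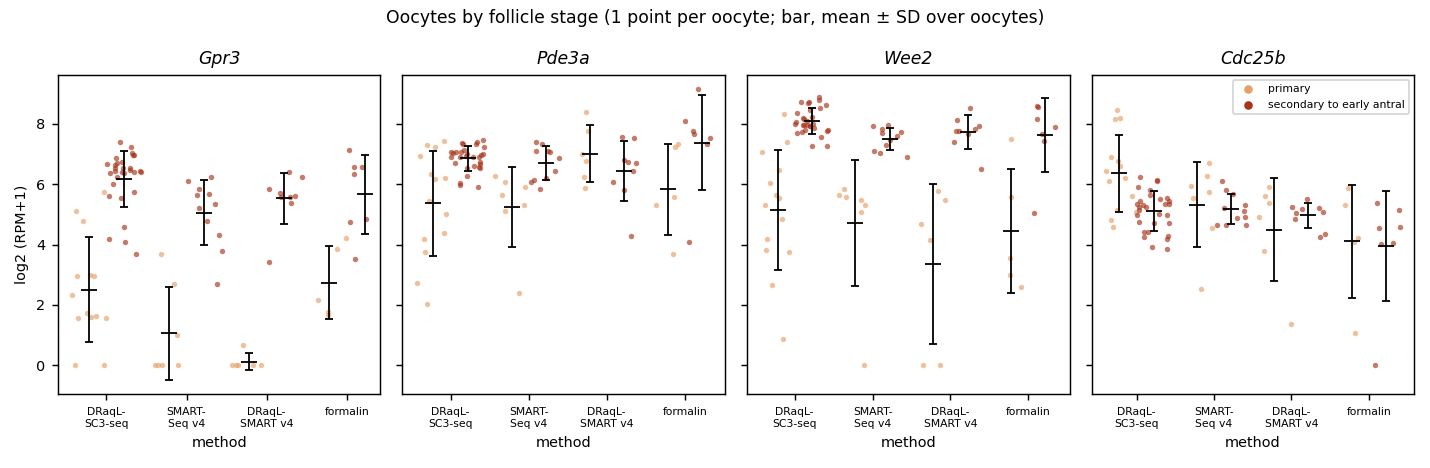
Levels of Gpr3, Pde3a, Wee2 and Cdc25b in log2 (RPM+1) per oocyte for 4 methods, with primary follicles in light and secondary-to-early antral follicles in dark points and bars at the mean ± SD over oocytes. The means of dark points lie above those of light ones for Gpr3 and Wee2, without overlap of points for Wee2 in SMART-Seq v4 and DRaqL-SMART-Seq v4, while those of Cdc25b lie at similar heights outside DRaqL-SC3-seq.

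How far a single section measures an oocyte can be read from 8 oocytes of which 2 sections each were sequenced. Wee2 averaged 8.15, with an SD of 0.34 between oocytes, taken over their means of 2 sections, and 0.29 between single sections of one oocyte. The first SD also holds part of the spread between sections, so that the 2 SDs are not on the same scale. Pde3a averaged 6.76 with SDs of 0.47 and 0.42. For Gpr3 the SD between sections, 0.59, exceeded that between oocytes, 0.39, and for Cdc25b the values were 0.74 and 0.24. The spread of the oocyte means was thus below that of single sections for Gpr3 and Cdc25b, and the difference of 3.69 between stages in Gpr3 was larger than either SD.

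For 5 oocytes of secondary-to-early antral follicles, libraries with Y-shaped adapters were made from whole cDNA amplified by DRaqL-SC3-seq. Their labels carry oocyte numbers of that set, so that they are not further oocytes, and the paper kept the samples with the most mapped reads. In ES cells the paper reports that reads of such libraries are biased toward the 3′ ends of transcripts. Wee2 had 816 to 1385 exon reads per oocyte over 12 of its 18 listed exons. Its reads crossed 9 junctions, with 163 reads in total and at least 17 in each oocyte. Every junction listed for any of these genes held a read in these oocytes. The listing therefore cannot show how completely junctions were covered. Pde3a had 277 to 538 reads, in 3 of 16 listed exons, and no listed junction. Its reads thus came from a small part of the gene, and the part of the 3′ bias in this was not tested. Gpr3 had up to 350 reads with a median of 244, Cdc25b 58 to 430 and Adcy3 6 to 195. Nppc had no read and Gpr12 had 4 reads in 1 oocyte. Npr2 had 233 reads in 1 oocyte, across junctions with 14 reads, and 3 reads in the 4 others.

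Granulosa cells were then compared by position. In single cells by DRaqL-SC3-seq no member passed the fold in either direction, where 0.23% of 19583 genes passed as higher in neighboring and 0.664% as higher in non-neighboring cells. The median difference, neighboring minus non-neighboring, was -0.01 over the 8 genes and -0.05 over all genes.

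Npr2 differed by -0.63 in DRaqL-SC3-seq, with neighboring cells at 5.87 ± 3.33 (31 cells) and non-neighboring cells at 6.50 ± 2.90 (26 cells). Among cells numbered 1 to 69 in the labels the difference was -1.52 and among those numbered 73 to 100 it was 2.42, a split that was chosen after the data were seen because their oocyte markers differed (pooled sums in neighboring cells of 2598 and 7337 RPM). In the other captured sets, Npr2 was higher in neighboring cells, by 0.91 in SMART-Seq v4, 1.68 in DRaqL-SMART-Seq v4, 1.57 in LCM-seq, 1.48 in DRaqL-Smart-seq2, 2.96 in formalin and 0.69 in the same mouse. In the dissociated cells it was lower, by 0.68. Summed theca markers were higher in non-neighboring cells in every set, whichever way Npr2 went. They were 980 RPM in non-neighboring against 48.7 RPM in neighboring cells in formalin and 921 against 7.96 RPM in DRaqL-SMART-Seq v4. In the sets where Npr2 was lower in neighboring cells, they were 463 against 86.4 RPM (DRaqL-SC3-seq) and 4524 against 55.6 RPM (dissociated cells). Their part in the Npr2 values was not tested. The sign was positive in 7 of 9 sets including the pools, the ranges of the positions overlapped in all 9, and the sets that compare methods came from sections of the same ovary, so that they are not independent animals.

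In the pools, which are the replicated comparison, Npr2 was 7.46, 7.12, 8.16, 8.27, 5.37, 8.48 and 7.92 in the neighboring and 8.25, 6.27, 6.29, 8.19, 7.62, 5.21 and 7.48 in the non-neighboring pools. The groups overlapped over nearly their whole range. The log2 fold change was 0.42 (SE 0.55, 95% interval -0.73 to 1.56), with an adjusted p of 0.998 by edgeR's quasi-likelihood test over 9704 genes, of which 0.453% were called. Adcy3 was 0 to 6.48 in neighboring and 0 to 6.90 in non-neighboring pools, with medians of 2.27 and 4.78 and a log2 fold change of -0.83 (SE 1.42, -3.80 to 2.14, adjusted p = 0.998 by the same edgeR test). Its intervals left room for changes of several fold in either direction.

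**Figure D4:**
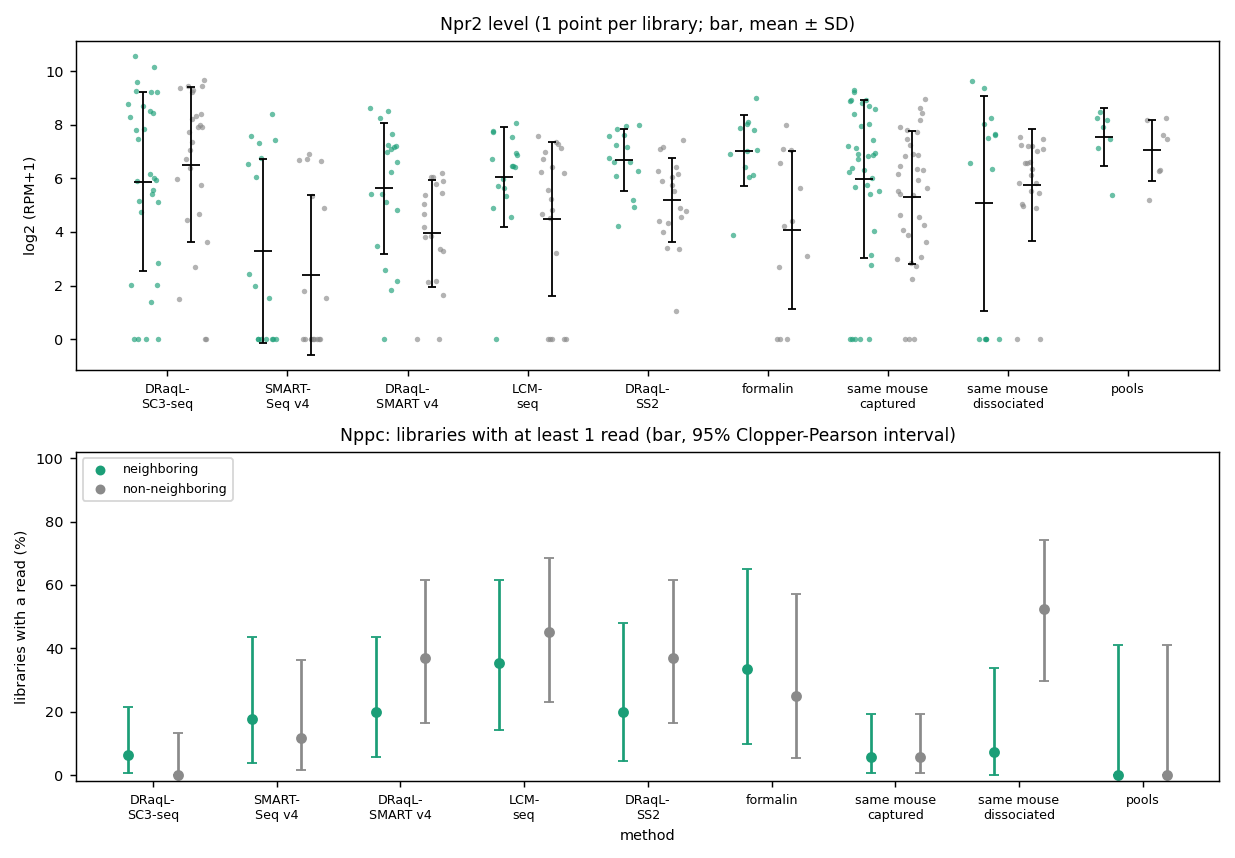
Above, Npr2 in log2 (RPM+1) per library for neighboring and non-neighboring granulosa cells of 9 sets, with the mean ± SD; below, the percentage of libraries with at least 1 Nppc read, with 95% Clopper-Pearson intervals. For Npr2 the positions overlap in every set, and for Nppc the widest gap is that of the dissociated cells, 7.14% against 52.4%.

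Of the genes on the oocyte side, Gpr3 and Wee2 had higher means in neighboring than in non-neighboring granulosa cells in 9 of 9 sets. For Wee2 the difference ranged from 0.22 in SMART-Seq v4 to 3.30 in LCM-seq, where 11 of 17 neighboring and 1 of 20 non-neighboring cells held a read. For Gpr3 it ranged from 0.14 to 1.64. In DRaqL-SC3-seq, the cells numbered 1 to 69 differed by -0.04 in Wee2 and 0.17 in Gpr3. The cells numbered 73 to 100, with more oocyte markers, differed by 0.83 and 1.73. This is the split given above for Npr2, chosen after the data were seen. In the pools, Wee2 had 45, 19, 13, 1, 568, 163 and 93 reads next to the oocyte and 2, 4, 2, 0, 0, 4 and 1 away from it. Gpr3 had 0, 10, 5, 58, 66, 38 and 0 reads next to the oocyte and 2, 0, 1, 0, 1, 1 and 1 away from it. Wee2 overlapped between the groups only through 1 neighboring pool with 1 read, and Gpr3 through 2 neighboring pools without a read.

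Neither gene, nor Pde3a or Cdc25b, passed edgeR's filter on low counts in the pools. Without the filter, edgeR gave Wee2 a log2 fold change of 5.98 (SE 1.74) with an adjusted p of 0.176 and Gpr3 one of 4.71 (SE 1.78) with an adjusted p of 0.216. DESeq2 called both, with adjusted p-values of 6.33e-05 and 0.0115. The sum of the 14 oocyte markers moved with them, at 856 to 8865 RPM in the neighboring and 2.34 to 151 RPM in the non-neighboring pools. All 14 oocyte markers were tested in the pools, 9 of them were called and none had a call in the other direction, and all 44 called genes were higher in neighboring pools. In single cells the markers moved the same way, with pooled sums of 2813 against 128 RPM in LCM-seq and 4176 against 1122 RPM in DRaqL-SC3-seq. Their part in the Wee2 and Gpr3 reads was not tested. Pde3a, which was also an oocyte gene, was higher in neighboring cells in 5 of 9 sets and had 25 reads next to and 203 reads away from the oocyte in the pools, of which 152 lay in 1 pool. This pool was also the one with the highest sum of theca markers, 5299 RPM, and it held 1704 RPM of endothelial and blood markers.

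**Figure D5:**
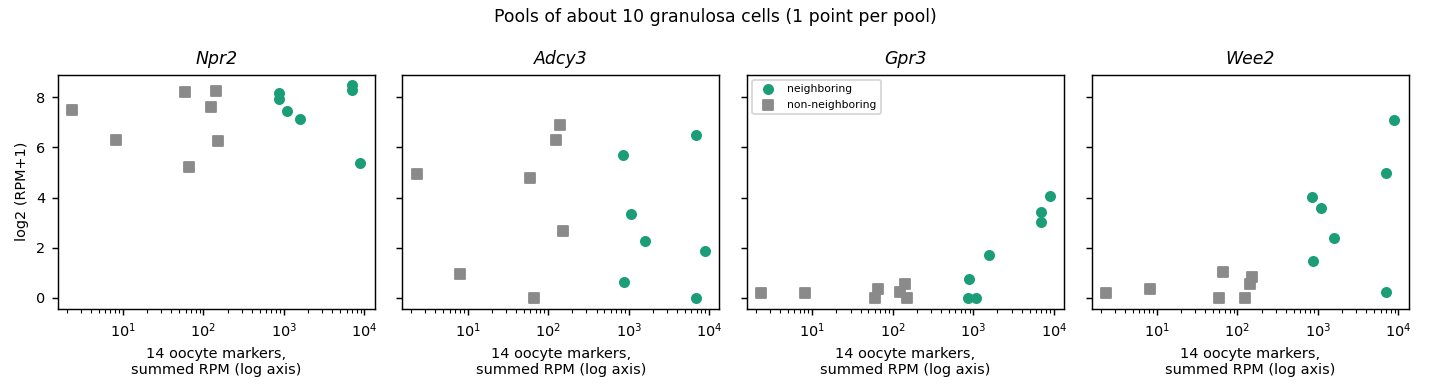
Levels of Npr2, Adcy3, Gpr3 and Wee2 in log2 (RPM+1) in 7 neighboring (circles) and 7 non-neighboring (squares) pools against the summed RPM of 14 oocyte markers on a log axis. Gpr3 and Wee2 stay at or below 0.57 and 1.04 in the pools away from the oocyte, where the markers sum to at most 151 RPM, while Npr2 spans 5.21 to 8.48 over all pools.

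The other genes of the pathway were taken from 4 lists of 57 genes in all. The 9 genes of cGMP encode natriuretic peptide receptors, cyclases, IMP dehydrogenases, cGMP-dependent kinases and a phosphodiesterase. None of them passed the fold between cell types, stages or positions. Among 20 genes of cAMP, 3 were higher in oocytes, namely the cyclase Adcy5 by 3.29, the regulatory subunit Prkar2a by 3.10 and the catalytic subunit Prkacb by 2.70, whereas the regulatory subunit Prkar2b was lower by 2.41 (4.54 against 6.95). That is 3 of 20, below the 24.7% of all genes. With the stage, Adcy5 was higher by 2.83 and the phosphodiesterase Pde4b by 2.37, while Prkacb was lower (-2.49), as was Gnas, the stimulatory G protein (-1.85). 

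Of 18 genes around CDK1, 12 were higher in oocytes and none lower, with a list median of 2.37, against 24.7% and 1.14% of all genes and a median of 0.67. The largest differences were those of the kinase Mos at 6.31, of Fzr1, an activator of the anaphase-promoting complex, at 5.52, and of Ccnb1, cyclin B1, and the inhibitory kinase Pkmyt1 at 4.15 each. With the stage, 9 of the 18 were higher, led by the checkpoint kinase Bub1b at 3.90, Mos at 3.57 and Fbxo5, an inhibitor of the anaphase-promoting complex, at 3.20, with a list median of 1.89, against 7.56% of all genes and a median of 0.04. By position, only Arpp19 passed the fold, as lower in neighboring cells by 1.80. Of 10 genes of gonadotropin and EGF signalling and gap junctions, Gja4, the connexin of the oocyte, was higher in oocytes by 7.46, Esr1 by 3.61 and Egfr by 1.86. Gja1, the connexin of granulosa cells, was lower by 7.15 and the FSH receptor gene Fshr by 5.02. With the stage, Egfr was higher by 2.64 and Gja4 by 2.00, and Esr1 was lower by 2.00. In the pools, Mos (log2 fold change 6.50, adjusted p = 0.0204) and Gja4 (4.99, adjusted p = 0.0420, edgeR for both) were called as higher next to the oocyte. Both were also higher in oocytes, the oocyte markers moved the same way in these pools (856 to 8865 against 2.34 to 151 RPM), and their part in these calls was not tested.

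In the same mouse, Gpr3 and Cdc25b differed between captured and dissociated oocytes by less than the SD of either group, and Wee2 and Pde3a by more. Gpr3 was 5.10 ± 1.07 in 8 captured and 5.00 ± 0.53 in 14 dissociated oocytes, and Cdc25b was 4.42 ± 1.09 and 4.84 ± 0.63. Wee2 was higher in dissociated oocytes, at 8.64 ± 0.20 against 8.03 ± 0.40, and Pde3a was lower, at 7.48 ± 0.36 against 8.23 ± 0.60. These oocytes differed in follicle stage, medium, handling and amplification method at once, which cannot be told apart.

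Finally, the genes with the most similar pattern were sought over the means of 32 groups among 11586 genes that reached a mean of 4 in some group. These correlations rest on groups that share methods and ovaries, and they are given without a test. Npr2 was closest to Evc2 (r = 0.94), Crispld2 (0.93) and Bok (0.92), and Adcy3 to Spag9, Rgs11 and Fam114a1 at 0.83 each. Gpr3 was closest to Ppp1r3d, Cpne9 and Vrtn at 0.98 each, Wee2 to Fbxw15, Gm13084 and Oas1e at 0.98 each, and Pde3a to Pls1 (0.98), Sycp2 and Hmgcll1 (both 0.97). Cdc25b was closest to Ldhd, C1qtnf5 and Mfrp at 0.94 each. Nppc, with no close partner, had Cyb5a (0.78), Slc26a7 and the inhibin subunit gene Inhba (both 0.74), which is also among the granulosa markers, and Gpr12, whose highest group mean was only 0.86, had Gm10226, Sptssb and Mslnl (0.88 to 0.89). Among the 8 genes themselves, Wee2 and Gpr3 were nearest to each other at 0.94, and Npr2 was nearest to Adcy3 at 0.80.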

How the data were processed

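Read counts per gene of 562 3′ libraries and counts per exon and junction of 15 libraries were used as the authors deposited them, without normalization. The authors trimmed reads with fastp 0.20.0 and cutadapt 1.16, aligned them to GRCm38 with HISAT2 2.1.0 and counted reads within 10 kb of annotated 3′ ends with HTSeq 0.10.0. Exons and junctions were counted with featureCounts 2.0.1. RPM was calculated over protein-coding genes with a pseudocount of 1. The 8 genes and the gene lists were chosen with earlier results of these data known. All 8 genes are named. Of the other pathway genes, the 3 largest differences in each direction past the fold and any gene called in the pools are named. Pools were compared with edgeR 4.0.16 (TMM, filterByExpr, quasi-likelihood F-test, Benjamini-Hochberg at 0.05), checked on simulated counts, in R 4.3.3. DESeq2 1.42.0, limma 3.58.1, other scalings, no filter, the pool number as a block, left-out pools, other pseudocounts, thinning and ratios of means were alternatives. Gene positions are from GENCODE M21. Tables with 45905 genes were restricted to protein-coding genes. Pool numbers were not taken as pairs, and cell groups were not tested.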

Additional observations from a re-analysis of the deposited data

Results flagged for a closer look

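Altogether 53 combinations of a gene and a group of 4 to 10 samples were examined. The groups were those of oocytes, their serial sections, the pools and the granulosa of single follicles. In 8 combinations, all of oocytes, the gap of a sample to its nearest neighbour, divided by the range of the group, exceeded Dixon's critical value. Chance gives about 1 in 20. In 1 oocyte of the formalin secondary-to-early antral follicles (number 3), 3 genes stood apart: Pde3a at 4.08, with the next oocyte at 7.34, Wee2 at 5.03, with the next at 7.44, and Cdc25b at 0.0, with the next at 4.03. Gpr3 was 3.41 in oocyte 2 of the secondary-to-early antral oocytes by DRaqL-SMART-Seq v4, with the next at 5.39. Among primary oocytes by SMART-Seq v4, Pde3a was 2.41 in oocyte 3 (next 5.12) and Wee2 was 0.0 in oocyte 4 (next 5.08). In the serial sections, Gpr12 was 1.46 in oocyte 2 (next 0.42) and Pde3a was 7.85 in oocyte 9 (next 6.88).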

How the results depend on the processing

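In the pools, edgeR's quasi-likelihood test called 0 of the 8 genes, and among the alternatives only DESeq2 called any, 2 of them, Wee2 and Gpr3. Over all genes edgeR called 44, of 402 with an unadjusted p under 0.05, DESeq2 called 411 and the fit with the replicate block 3, while leaving out the pools of 1 number gave 5 to 34. The numbers were not taken as pairs, because the correlations of same-numbered pools were 0.006 to 0.188. The log2 difference of Adcy3 was -2.07 to 0.025 when 1 number was left out, turning from -0.83 to 0.025 without replicate 1, and that of Npr2 was 0.10 to 0.71. In single cells, the count of genes past the fold between cell types was 5, and 4 with a pseudocount of 10, where Cdc25b did not pass. With the log2 ratio of mean RPM the count was 5 again, with Adcy3 in place of Cdc25b. By position 1 gene, Npr2, passed among cells of higher numbers, an alternative chosen after seeing the data. Of the alternative values for single-cell differences of the 8 genes, 129 differed from the main value by less than the SD over cells. The other 15 moved by more, 10 of them with the pseudocount. The 129 include changes of sign, such as that of Npr2 by position from -0.63 to 2.42 among cells of higher numbers. The cause of these shifts was not tested. Nppc and Gpr12 had 0 reads in the pools and could not be fitted there.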
